A study of Mus musculus with 8 samples.

Results

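The genes described here are 43 mouse genes of 19 imprinted clusters, chosen by name from the array's gene names and grouped by cluster and by the parental allele that each is known to be expressed from. Of these, 42 genes had a probe among the 31732 genes named on the array and Rian had none. RNA came from cultured satellite cells, which are muscle stem cells, isolated from the extensor digitorum longus of the hindlimb. The groups were Dnmt3a-KO cells and WT littermate cells, from mice labelled male and aged 8 weeks, grown for 5 days in growth medium, replated at equal cell number and kept in differentiation medium for 2, 4, 5 or 6 days. Each genotype had 1 array per day, 8 arrays in all. The labels name neither the Dnmt3a allele nor a Cre driver, and leave unstated if each day is another animal or culture. The p-values between genotypes therefore measure only how the genotype difference varied from day to day, which may be technical.

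Imprinted genes are transcribed mainly or only from the copy inherited from one parent. The choice is held by differentially methylated regions, most of which are methylated in the female or male germline, where DNMT3A and its partner DNMT3L lay the mark; after fertilisation DNMT1 copies it and the zinc finger protein ZFP57 with TRIM28 protects it. Many imprinted genes, among them Mest, Dlk1, Plagl1 and H19, are highly transcribed in the fetus and in growing or regenerating tissue and are turned down with maturity. The arrays measured total RNA and cannot tell the parental alleles apart.

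On each array, 61.6% to 67.4% of the 43020 non-control spots were well above background. Signals are given as the processed signal over the array's own 75th percentile, called relative signal. The number of arrays limits the precision. Dnmt3a itself, the de novo DNA methyltransferase removed by design, had a relative signal of 0.240, 0.525, 0.542 and 0.389 on days 2, 4, 5 and 6 in Dnmt3a-KO cells, against 0.519, 2.65, 2.50 and 2.04 in WT cells, or 24.8% of WT on average (limma, log2 difference −2.01 ± 0.60, SD over 4 days, adjusted p = 0.102). The sources used here do not place this probe relative to the deletion. The day 2 arrays stand apart: they lie on a slide of their own and were read on another scanner model, and 5 probes of 4 Y-linked genes exceeded background in both genotypes on day 2 but on 0 of the 6 arrays of days 4 to 6, while 2 Xist probes did the reverse, which goes against the male label of days 4 to 6. The genotypes were matched within each day in all of these respects, whereas day 2 cannot be told apart from its slide, its scanner and the sex-linked difference. Among marker lists, 6 of 7 tested genes of cycling cells had an unadjusted p under 0.05, with median log2 differences of −0.99, −1.34, 0.02 and −1.09 on days 2, 4, 5 and 6, none past the adjusted threshold. Their summed relative signal on days 2, 4, 5 and 6 was 16.9, 18.5, 14.8 and 15.5 in Dnmt3a-KO cells. In WT cells it was 30.5, 14.8, 13.2 and 15.4, so the sum, unlike the median, was lower in Dnmt3a-KO cells on day 2 only. The 12 fibroblast markers swung between genotypes from day to day: they summed to 81.9, 23.3, 113 and 36.0 on days 2, 4, 5 and 6 in Dnmt3a-KO cells, against 31.9, 66.4, 104 and 68.0 in WT cells, with median log2 differences of 0.41, −1.08, 0.13 and −0.74. Lum and Dpt were never above background, 0 of the 10 tested passed the threshold, and the part of such cells in the members' differences was not tested. The leukocyte markers stayed at or under 1.06 in Dnmt3a-KO cells and 1.19 in WT cells, with Cd68, Lyz2 and Tyrobp never above background. Fewer cells of a type and less RNA per cell cannot be told apart in such bulk RNA. The satellite cell markers Pax7 and Myod1 were above background on all 8 arrays, and Myf5 was on none.

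The probes shown next are those whose values carry the account below: the most upstream probes of Mest, Peg10 and Dlk1, the probe that stood for the Meg3 RNA in the test, and the Gnas probe that passed the threshold on its own. Each is a 60-base probe printed 5′ to 3′ as in the scanner files, with mm9 positions from the same files; all 5 lie on the + strand.
Mest, chr6:30692160-30692219: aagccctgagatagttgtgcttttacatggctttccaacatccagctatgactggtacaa
Peg10, chr6:4704589-4704648: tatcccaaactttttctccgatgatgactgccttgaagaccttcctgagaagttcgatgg
Dlk1, chr12:110698502-110698561: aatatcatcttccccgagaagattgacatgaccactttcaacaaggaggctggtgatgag
Meg3, chr12:110809678-110809737: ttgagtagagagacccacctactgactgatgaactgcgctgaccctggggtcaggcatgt
Gnas, chr2:174125482-174125541: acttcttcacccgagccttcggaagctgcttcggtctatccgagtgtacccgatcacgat

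Between genotypes, no imprinted gene passed the threshold, and the widest mean differences lay in both directions: Mest, Peg10, Kcnq1 and Gnas below WT, Dlk1, Rasgrf1, Rtl1, Plagl1 and Meg3 above it. With day as a block, 0 of the 36 members tested passed an adjusted p of 0.05 (limma with Benjamini-Hochberg adjustment over all genes; 0.0102% of the 19674 genes tested were called, 1 higher and 1 lower). At an unadjusted p under 0.05, 12 of 36 members were found, against 12.9% of all genes. The median log2 difference, Dnmt3a-KO minus WT, was 0.04 over the members tested and −0.01 over all genes tested (between −0.04 and 0.06 over the members under the alternatives tried), and 18 members were positive and 18 negative. Peg3, Ndn, Mkrn3, Dlk1, Meg3, Plagl1, Cd81, Rasgrf1 and Zrsr1 were higher on all 4 days, 9 of 36 against 10.9% of all genes. Mest, Peg10, Ppp1r9a, Grb10, Gnas and Kcnq1ot1 were lower on all 4 days, 6 of 36 against 11.5% of all genes. These counts rest on the probe that stood for each gene. In 22 of the 36 the mean difference lay within 0.3 of zero, a share that was not taken over all genes. For none of the 36 did all 4 Dnmt3a-KO arrays lie above or below all 4 WT arrays, which 0.940% and 0.773% of all genes did.

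**Figure D1:**
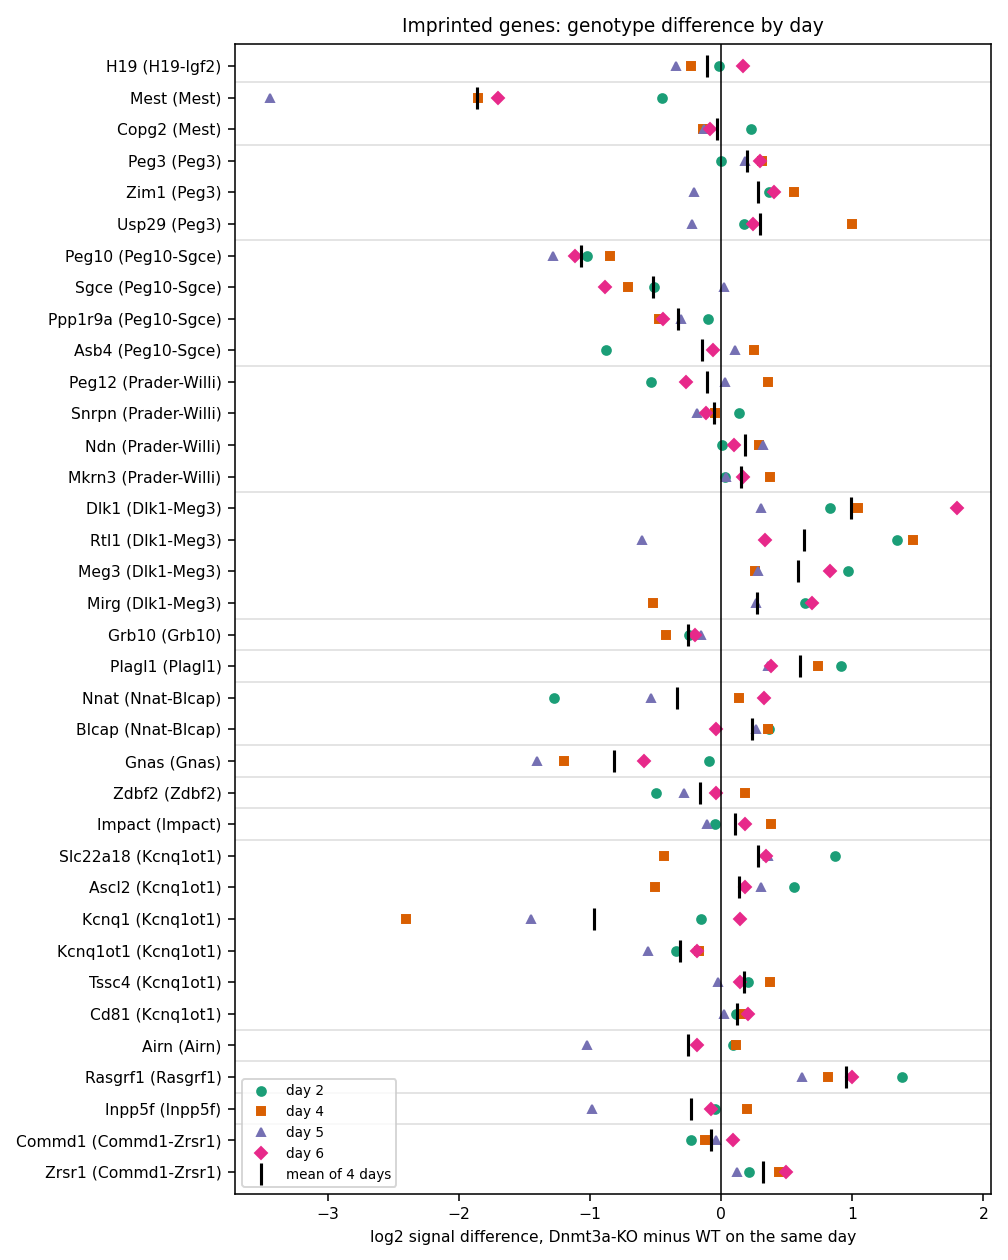
The x axis is the log2 signal difference, Dnmt3a-KO minus WT on the same day, and the rows are the 36 tested imprinted genes with their cluster in brackets; symbols are single days (1 array per genotype) and the black bar is their mean. Mest reaches −3.44 on day 5, the 2 Peg10-Sgce genes Peg10 and Ppp1r9a lie left of zero on every day, and Dlk1, Meg3, Plagl1 and Rasgrf1 lie right of it on every day.

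By parental allele, positive and negative differences were of similar number. The 20 tested genes expressed from the paternal allele had a median difference of 0.03, with 10 positive and 10 negative, and the 16 expressed from the maternal allele had a median of 0.05, with 8 positive and 8 negative. Gnas is counted as maternal there, although the probe that stood for it lies in the XL exon, whose transcripts come from the paternal allele. Counted as paternal, it gives medians of −0.05 over 21 paternal genes, with 10 positive and 11 negative, and 0.12 over 15 maternal genes, with 8 positive and 7 negative. The 7 tested genes of clusters whose methylated copy is the paternal one had a median of 0.59 and 5 were positive. Of these 7, 4 belong to the Dlk1-Meg3 cluster, so they are not independent. Rtl1 among them met the filter for testing mainly through its Dnmt3a-KO arrays. The 29 genes of clusters methylated on the maternal copy had a median of −0.05, with 13 positive and 16 negative.

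Mest, a paternally expressed gene for an endoplasmic reticulum protein with a hydrolase fold, had the widest difference among the members. Its relative signal was 40.3, 0.816, 0.282 and 1.20 on days 2, 4, 5 and 6 in Dnmt3a-KO cells, against 54.3, 2.95, 3.06 and 3.90 in WT cells. Dnmt3a-KO lay below WT on each day, by 1.35-fold on day 2, 3.61-fold on day 4, 10.9-fold on day 5 and 3.25-fold on day 6. Averaged over the days, the log2 difference was −1.86 ± 1.23 (SD; SE 0.47, adjusted p = 0.284), a spread nearly as large as the difference itself, and it was −1.33 without day 5. Its 3 probes gave −1.86 ± 1.23, −1.72 ± 1.15 and −1.59 ± 0.96, the last from the probe printed above. On day 2 some spots of the first probe carried an outlier flag in both genotypes. They were left out of the fit, while the day 2 levels and fold given here include them. Copg2, the coatomer subunit gene that is read on the opposite strand, differed by −0.03 ± 0.17 (adjusted p = 0.911), with 2.18, 2.89, 2.73 and 2.79 in Dnmt3a-KO cells and 1.86, 3.17, 2.99 and 2.96 in WT cells. Its other probe, which is the nearer to Mest with 152 bases between them, gave −0.10 ± 0.13. The median of the cycling markers, −0.99, −1.34, 0.02 and −1.09 over the same days, was near zero on day 5, when the Mest difference was widest; the part of cycling cells in the Mest difference was not tested.

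In the Peg10-Sgce cluster all 4 genes had negative mean differences on the probes that stood for them. Peg10, a paternally expressed gene derived from a retrotransposon and known for its need in the mouse placenta, had 0.0713, 0.0595, 0.0313 and 0.0285 on days 2, 4, 5 and 6 in Dnmt3a-KO cells, against 0.145, 0.107, 0.0761 and 0.0617 in WT cells. Dnmt3a-KO lay 1.79-fold to 2.43-fold below WT on each day, although the 2 groups overlap across days since the signal fell with day in both genotypes. The log2 difference was −1.06 ± 0.18 (SE 0.09), the nearest of all members to the threshold (adjusted p = 0.0668). The second Peg10 probe, printed above and exceeding background on 3 Dnmt3a-KO and 4 WT arrays, gave −1.11 ± 0.16. Peg10 passed the threshold where only genes well above background on all 8 arrays were tested (adjusted p = 0.0314), with an intensity trend in the variance (0.0372) and with day as a random block (0.0201), and shrank to −0.51 with normexp background correction (adjusted p = 0.0607). Over the alternatives tried its adjusted p lay from 0.0201 upward. With a day left out it was 0.116 to 0.314, with the deposited score 0.127 and without a filter on dim probes 0.227. It was highest without the day block (0.9999).

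On the probes that stood for them, its neighbours had the same sign with smaller values. Sgce, the paternally expressed gene of the muscle membrane protein epsilon-sarcoglycan, had 0.833, 0.254, 0.501 and 0.259 in Dnmt3a-KO cells, against 1.19, 0.415, 0.493 and 0.477 in WT cells, level with WT on day 5 and below it on the other days (−0.52 ± 0.39, adjusted p = 0.322). Ppp1r9a, which encodes neurabin, an actin-binding scaffold for protein phosphatase 1, and is expressed from the maternal allele in some tissues, differed by −0.33 ± 0.17 (adjusted p = 0.298). Asb4, a maternally expressed ankyrin repeat and SOCS box gene, differed by −0.15 ± 0.51 and was negative on days 2 and 6 only. Without day 2 the difference was 0.10, and a second, dimmer Asb4 probe gave 0.005 ± 0.28, so the sign of Asb4 was not settled.

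The Dlk1-Meg3 cluster of chromosome 12 had 4 tested genes with positive means on either parental side. Of these, Rtl1 entered the test mainly through its Dnmt3a-KO arrays. Dlk1 encodes a transmembrane protein of the Delta family that restrains differentiation in several precursor cells. It had 3.56, 7.38, 1.92 and 3.56 in Dnmt3a-KO cells on days 2, 4, 5 and 6, against 2.00, 3.59, 1.56 and 1.02 in WT cells. Dnmt3a-KO lay above WT on each day, by 1.78-fold, 2.06-fold, 1.23-fold and 3.48-fold, with a mean log2 difference of 0.99 ± 0.62 (SE 0.24, adjusted p = 0.274) and 1.05 ± 0.61 for the second probe, printed above.

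Meg3, the maternally expressed long noncoding RNA of the cluster, had 120, 45.3, 18.6 and 14.1 in Dnmt3a-KO cells, against 61.3, 38.0, 15.3 and 7.91 in WT cells. The gap was wide on days 2 and 6 and narrow on days 4 and 5, and the mean difference was 0.59 ± 0.37 (adjusted p = 0.292). The other Meg3 probes gave 0.67 ± 0.64 and 0.65 ± 0.47. Mirg, a maternally expressed host transcript of microRNAs, had 22.6, 6.90, 5.11 and 4.61 in Dnmt3a-KO cells, against 14.5, 9.86, 4.25 and 2.85 in WT cells, below WT on day 4 only (0.27 ± 0.56, adjusted p = 0.632). Rtl1, a paternally expressed retrotransposon-derived gene needed in the mouse placenta and fetal muscle, was well above background on 3 Dnmt3a-KO arrays and 1 WT array. It thus met the filter of 4 arrays mainly through the genotype where it was higher, and its sign adds no support for the cluster. Its Dnmt3a-KO signal was 2.54-fold the WT signal on day 2, at least 2.76-fold on day 4 and at least 1.26-fold on day 6, and on day 5 neither array was above background. Its fitted difference was 0.64 ± 0.97 (adjusted p = 0.525).

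**Figure D2:**
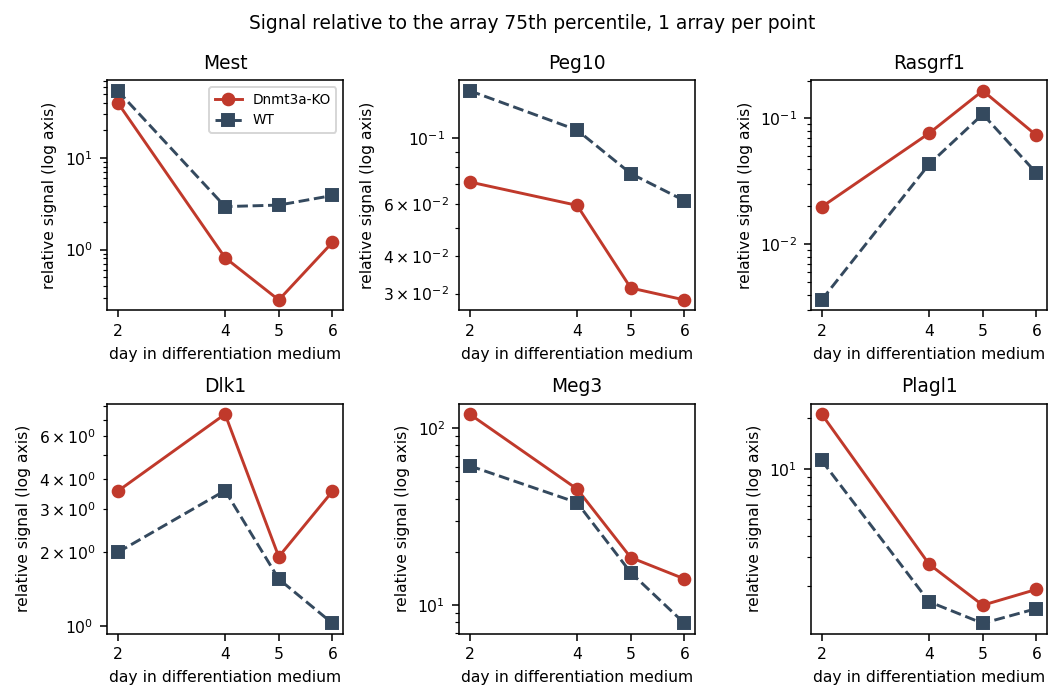
The x axis is the day in differentiation medium and the y axis, on a log scale, is the signal relative to the array's 75th percentile for 6 imprinted genes; each point is 1 array, with Dnmt3a-KO in red circles and WT in dark squares. The red line lies below the dark line on all 4 days for Mest and Peg10 and above it for Rasgrf1, Dlk1, Meg3 and Plagl1, and Mest, Meg3 and Plagl1 are highest on day 2 in both genotypes.

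Plagl1 and Rasgrf1 also lay above WT on every day. Plagl1, a paternally expressed zinc finger factor known to regulate other imprinted growth genes in mouse, had 21.2, 2.71, 1.54 and 1.92 in Dnmt3a-KO cells, against 11.2, 1.62, 1.20 and 1.47 in WT cells, 1.89-fold apart on day 2 and 1.28-fold on day 5 (0.60 ± 0.28, adjusted p = 0.211). Its probes disagreed: the second gave 0.50 ± 0.30 and shares a run of 26 bases with the first (ATCTCCTAACCTTTGATGACTCTGTA, shown because the 2 probes are not separate readings there), while the remaining probes gave 0.18 ± 0.10 and −0.06 ± 0.09, and the mean of all 4 was 0.31. Rasgrf1, a paternally expressed exchange factor that activates Ras, had 0.0198, 0.0762, 0.166 and 0.0734 in Dnmt3a-KO cells, against 0.00362, 0.0433, 0.108 and 0.0368 in WT cells. The WT array of day 2 was not well above background, which makes that day at least 2.03-fold, and the later days were 1.76-fold, 1.53-fold and 1.99-fold. The mean difference was 0.95 ± 0.32 (SE 0.14, adjusted p = 0.118), and 0.38 with normexp background correction. Only the probe to transcript variant 2 was read; the probe to variant 1 was not well above background on any array.

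The Gnas locus makes several transcripts that share their downstream exons. In mouse the alpha subunit of the stimulatory G protein is made from both alleles in most tissues and from the maternal one in some, and the XL transcripts are made from the paternal allele. The 4 probes along the locus gave different answers. The XL exon probe, annotated to the ALEX protein, had 1.76, 0.242, 0.128 and 0.0800 in Dnmt3a-KO cells on days 2, 4, 5 and 6, against 1.88, 0.556, 0.336 and 0.120 in WT cells (−0.82 ± 0.60, adjusted p = 0.311); this was the probe used for the gene. The probe printed above, 3.15 kb downstream and annotated to transcript variant 6, had 0.0573, 0.0435, 0.0554 and 0.0204 in Dnmt3a-KO cells, against 0.137, 0.144, 0.168 and 0.0593 in WT cells. Dnmt3a-KO was 2.40-fold, 3.31-fold and 3.03-fold lower on days 2, 4 and 5, and at least 2.91-fold lower on day 6, when its spot was not well above background. The fit gave a log2 difference of −1.53 ± 0.20 (SE 0.10). When each probe was tested on its own, this was the only probe of any member past the threshold (limma, adjusted p = 0.0461; 8 of 24451 probes, 0.0327%, were called), a test added after the Gnas probes were seen to differ. The variant 4 probe, 41.2 kb from the first, gave −0.51 ± 0.37 with 0.149, 0.219, 0.321 and 0.179 in Dnmt3a-KO cells, against 0.161, 0.441, 0.464 and 0.236 in WT cells. The probe near the 3′ end, 49.6 kb from the first and annotated to variant 8, was left out because the Dnmt3a-KO spot of day 4 carried an outlier flag; it had 101, 105, 108 and 116 in Dnmt3a-KO cells, against 102, 120, 115 and 114 in WT cells, a difference of −0.07 ± 0.10 with that spot and −0.02 ± 0.06 over the other 3 days.

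**Figure D3:**
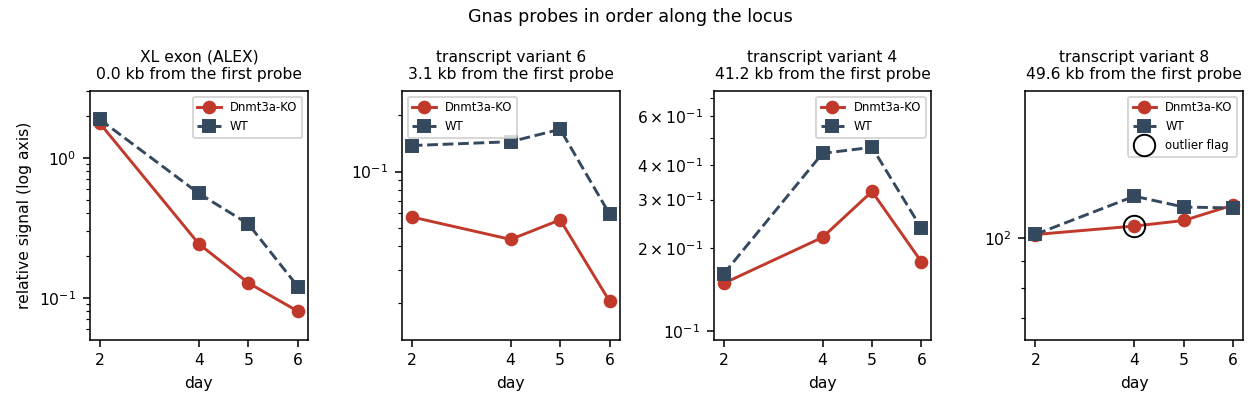
Each panel is 1 Gnas probe, in order along the locus with its distance from the first probe in kb; the x axis is the day and the y axis the relative signal on a log scale, with Dnmt3a-KO in red circles and WT in dark squares. The variant 6 probe is lower in Dnmt3a-KO on all 4 days (−1.53 on the log2 scale), while the probe 49.6 kb away is nearly level (−0.07); the ring marks the outlier-flagged spot.

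H19, the maternally expressed long noncoding RNA of the H19-Igf2 cluster, was nearly level between genotypes. Its second probe, at chr7:149761492-149761551 on the − strand of mm9, read 276, 380, 367 and 397 in Dnmt3a-KO cells on days 2, 4, 5 and 6, against 270, 379, 411 and 396 in WT cells. The WT spot of day 4 carried an outlier flag, so this probe was left out of the test; the difference was −0.03 ± 0.09 with that spot and −0.04 ± 0.11 over the other 3 days. The probe that was tested gave −0.10 ± 0.23 (adjusted p = 0.700). Igf2, the growth factor gene of the cluster, named here after its values were seen, differed by −0.05 ± 0.10 (adjusted p = 0.793).

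Grb10 and the Kcnq1ot1 probe used in the test lay below WT on each day without passing the threshold. A second Kcnq1ot1 probe gave −0.22 ± 0.41 and lay above WT on days 4 and 6 (0.23 and 0.01). Grb10, an adaptor of insulin and IGF receptors expressed from the maternal allele outside the brain, had 1.04, 0.780, 0.685 and 0.612 in Dnmt3a-KO cells, against 1.22, 1.04, 0.761 and 0.701 in WT cells (−0.25 ± 0.12, adjusted p = 0.320). Kcnq1ot1, the paternally expressed noncoding RNA that keeps its neighbours silent in cis, had 1.54, 0.388, 0.205 and 0.226 in Dnmt3a-KO cells, against 1.96, 0.435, 0.303 and 0.257 in WT cells (−0.32 ± 0.18, adjusted p = 0.317). Of the maternally expressed genes in its domain, the cell surface protein gene Cd81 differed by 0.12 ± 0.08, the spliceosome assembly factor gene Tssc4 by 0.18 ± 0.16, the transporter gene Slc22a18 by 0.28 ± 0.54 and the basic helix-loop-helix gene Ascl2 by 0.13 ± 0.45. The potassium channel gene Kcnq1 had 0.0631, 0.0114, 0.0404 and 0.0169 in Dnmt3a-KO cells, against 0.0702, 0.0604, 0.110 and 0.0152 in WT cells: at least 5.29-fold lower on day 4, 2.73-fold lower on day 5, and below background in both genotypes on day 6 (−0.96 ± 1.18, adjusted p = 0.446). Zrsr1, a paternally expressed splicing factor retrogene, lay above WT on each day (0.32 ± 0.18, adjusted p = 0.312), and Commd1, the gene whose intron holds it, differed by −0.07 ± 0.13.

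In the remaining clusters, no tested gene had a mean difference wider than that of Nnat (−0.34), on the probe used for each. Some of these genes varied widely from day to day. In the Peg3 cluster, the zinc finger genes Peg3 and Zim1 differed by 0.20 ± 0.14 and 0.28 ± 0.33 and the protease gene Usp29 by 0.30 ± 0.51. In the Prader-Willi cluster, the spliceosomal gene Snrpn differed by −0.05 ± 0.14, the MAGE family gene Ndn (necdin) by 0.18 ± 0.15, the RING finger gene Mkrn3 by 0.15 ± 0.16 and the FRAT family gene Peg12 by −0.10 ± 0.38. Nnat, a small proteolipid of the endoplasmic reticulum, was 2.42-fold lower on day 2 and differed by −0.34 ± 0.73 over the 4 days, beside 0.24 ± 0.19 for Blcap, the gene that surrounds it. Zdbf2 differed by −0.16 ± 0.29, the translation regulator Impact by 0.10 ± 0.22, the phosphatase gene Inpp5f by −0.23 ± 0.52 and Airn, the noncoding RNA that silences Igf2r and its neighbours in cis, by −0.25 ± 0.53. Airn lay 2.03-fold below WT on day 5 and differed by 1.13-fold or less on the other days. The 6 members not tested, Magel2, Nap1l5, Slc38a4, Phlda2, Slc22a2 and Slc22a3, were well above background on at most 1 array per genotype, with no relative signal over 0.0303.

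Single days could not be tested, since a day holds only 1 array of each genotype, but they place the 2-fold differences. Each gene is read there from the probe that stood for it. On day 2, Rasgrf1 and Rtl1 were 2-fold or more higher and Nnat and Peg10 2-fold or more lower (1.89% and 1.14% of all genes tested). On day 4, Dlk1 and Rtl1 were higher and Gnas, Kcnq1 and Mest lower (1.46% and 3.08%). On day 5 no member was higher and Airn, Gnas, Kcnq1, Mest and Peg10 were lower (0.915% and 1.82%). On day 6, Dlk1 was higher and Mest and Peg10 were lower (1.30% and 1.89%). The change of the genotype difference with day passed the threshold for 0 of 36 members and for 0% of the 19674 genes (limma, interaction of genotype and day; at an unadjusted p under 0.05, 0 members and 821 genes, 4.17%).

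Across days, more members fell than rose. The day slope passed the threshold for 22 of 36 members, 15 falling and 7 rising, against 19.4% falling and 26.0% rising among all genes. This fit counts both arrays of a day as separate readings, although they share a slide, as do days 4 and 5. Its p-values may therefore be too small. The median slope was −0.15 log2 units per day over the members and 0.03 over all genes. Among those falling were Mest (−1.23 per day), the XL exon probe of Gnas (−1.05), Airn (−1.0), Plagl1 (−0.86), Meg3 (−0.78), Kcnq1ot1 (−0.75), Mirg (−0.60) and Peg3 (−0.54), with Zim1, Sgce, Peg10, Ppp1r9a, H19, Peg12 and Grb10 between −0.46 and −0.20; for H19 and Gnas the probes with the flagged spots gave slopes of 0.14 (adjusted p = 0.0221) and 0.04 (adjusted p = 0.252). Those rising were Rasgrf1 (0.65), Slc22a18 (0.62), Zdbf2 (0.33), Snrpn (0.17), Cd81 (0.15), Blcap (0.12) and Commd1 (0.11). Without day 2, 0 of 36 members and 0% of all genes passed (8.00% of all genes at an unadjusted p under 0.05), in a fit with 2 fewer arrays and a shorter span of days. The slopes themselves did not all go with the calls: 17 of the 22 kept their sign. Meg3 (−0.99 per day), Gnas (−0.95), Mirg (−0.59), Peg10 (−0.46), Ppp1r9a (−0.28) and Grb10 (−0.23) kept at least 80% of the slope, while Mest (0.24), Sgce (0.06), Snrpn (−0.03), Zdbf2 (−0.09) and Rasgrf1 (−0.07) had the opposite sign. Without day 5, 6 of 36 members passed, all falling. Of the 19674 genes tested, 79 rising and 313 falling passed in that fit.

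**Figure D4:**
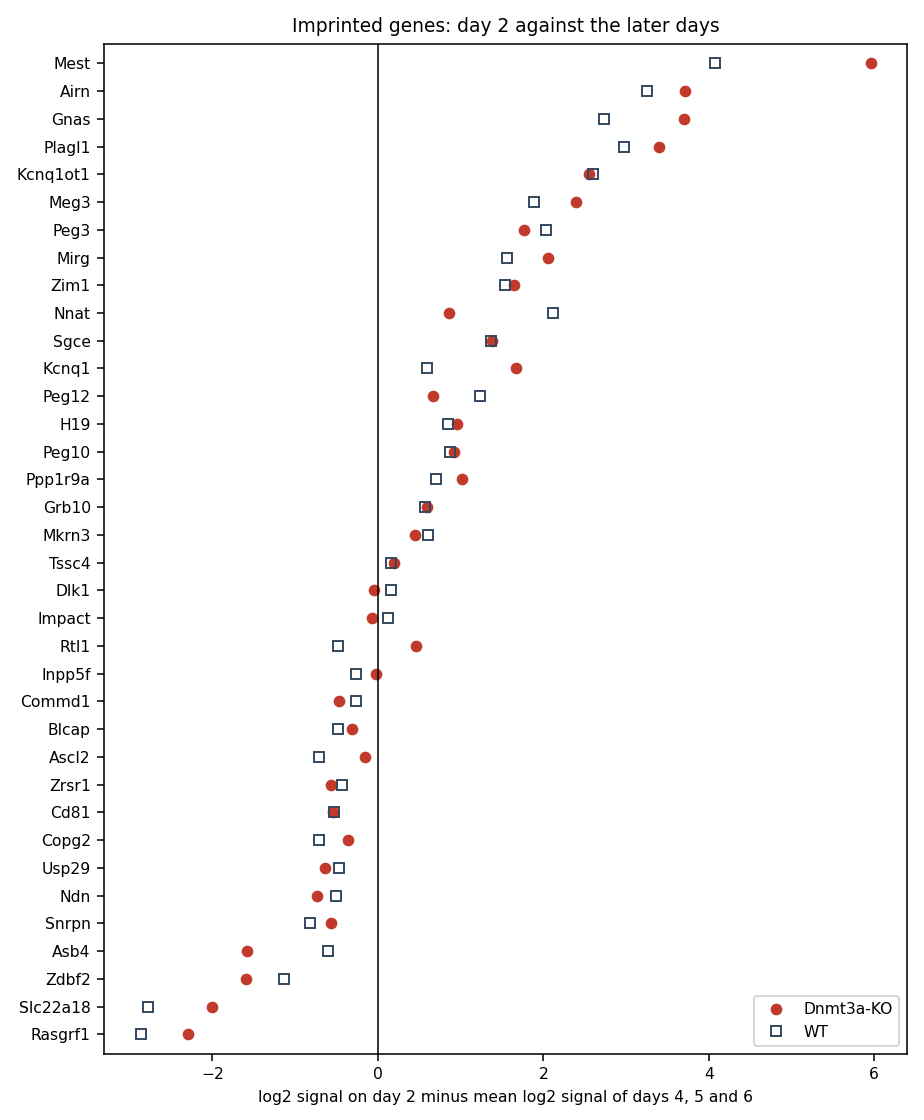
The x axis is the log2 signal on day 2 minus the mean of days 4, 5 and 6, and the rows are the 36 tested imprinted genes in order of that value averaged over genotypes; red circles are Dnmt3a-KO and open dark squares WT. Mest is farthest right in both genotypes, at 5.96 in Dnmt3a-KO cells and 4.07 in WT cells, and Rasgrf1 and Slc22a18 lie farthest left.

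Both genotypes had lower signals after day 2 for the steepest members. Besides Mest, the log2 signal of day 2 minus the mean of later days was 3.71 in Dnmt3a-KO cells and 3.25 in WT cells for Airn. It was 3.40 in Dnmt3a-KO cells and 2.98 in WT cells for Plagl1, and 2.55 in Dnmt3a-KO cells and 2.60 in WT cells for Kcnq1ot1. Dlk1 did not follow them, at −0.05 in Dnmt3a-KO cells and 0.16 in WT cells.

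Promoter windows of 300 bases, 250 before and 50 after the start, were available from RefSeq on GRCm38.p6 for 37 of the 43 members, 53 windows in all. The motif TGCCGC, the core that ZFP57 binds when methylated, was searched on both strands (TGCCGC or GCGGCA, no overlap between the 2 forms). It stood in 13 of the 53 windows, of 12 members, against 11.6% of all 32851 windows, and the median number of CpG sites was 13 in the members' windows against 7 in all. The windows of Mest and Plagl1 are shown because both genes fell steeply after day 2 and differed between genotypes in opposite directions. Both are on the + strand, chr6:30737800-30738099 with 17 CpG sites and 2 matches for Mest and chr10:13090582-13090881 with 26 CpG sites and 1 match for Plagl1, with the matches in capitals. Methylation was not measured, and a match is only a description of the letters.
Mest: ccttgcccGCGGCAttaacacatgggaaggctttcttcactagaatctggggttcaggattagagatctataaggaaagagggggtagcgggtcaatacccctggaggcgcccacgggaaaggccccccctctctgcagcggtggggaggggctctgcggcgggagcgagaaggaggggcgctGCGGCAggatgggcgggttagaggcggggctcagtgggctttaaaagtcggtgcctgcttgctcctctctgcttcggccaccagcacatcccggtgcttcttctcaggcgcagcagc
Plagl1: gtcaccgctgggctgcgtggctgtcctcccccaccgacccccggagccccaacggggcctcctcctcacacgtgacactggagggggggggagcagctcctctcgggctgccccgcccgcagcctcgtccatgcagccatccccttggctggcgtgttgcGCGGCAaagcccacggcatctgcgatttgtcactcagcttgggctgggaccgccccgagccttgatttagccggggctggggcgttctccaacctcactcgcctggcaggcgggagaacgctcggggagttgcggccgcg

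Other imprinted genes, a further list of 45 of which 43 had a probe, had 0 of 38 tested genes past the threshold. At an unadjusted p under 0.05, 7 of 38 were found, against 12.9% of all genes tested, and the median difference was −0.03. The largest positive means were Dcn, a small proteoglycan gene that is also in the fibroblast list (0.74 ± 0.99), Tspan32 (0.63 ± 0.47) and Art5 (0.42 ± 0.29). The largest negative means in this list were Cdkn1c, a maternally expressed inhibitor of cyclin-dependent kinases (−0.92 ± 0.70, adjusted p = 0.320), and Klf14 (−0.91 ± 0.53). Cdkn1c had 75, 3.83, 7.30 and 5.13 in Dnmt3a-KO cells on days 2, 4, 5 and 6, against 77.6, 13, 13.9 and 9.84 in WT cells, level on day 2 and below WT later. Of 25 genes for writers, readers and protectors of imprints, 21 were tested and 0 passed, with a median of −0.06.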

How the data were processed

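RNA of 8 samples was hybridised to 1-colour Agilent arrays, 4 per genotype with 1 per genotype and day. Per the file headers, the intensity of each spot was extracted with Agilent Feature Extraction, on a G2505C scanner on day 2 and a G2505B scanner later, with mm9 probe positions; the submitters' processing notes name version 9.5. The deposited value table holds a score, the processed signal times 100 over the 75th percentile of all spots (100% of values within 1 of that; column medians 6), and was used as an alternative. No value column of another sample was present.

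The processed intensity was divided by the array's 75th percentile over 43020 non-control spots, floored at 0.00763 (log2 −7.03) and log2 transformed. Spots flagged as outliers were left out of the fits (273 of 39429 probes, 2 of them members'), while the printed relative signals average all spots. Spots of a probe were averaged, and the probe with the highest mean stood for a gene. A gene was tested if at least 4 arrays read it well above background. RefSeq (GRCm38.p6) matched 26055 probes and updated 3358 symbols. limma 3.58.1 in R 4.3.3 was used, with Benjamini-Hochberg adjustment at 0.05: genotype with day as a block (3 residual degrees of freedom), which pairs the arrays of a day and slide, day slope (5) and their interaction (2). At least N-fold is a bound, the brighter array over the dim probe's own signal or, if higher, the dim array's lowest probe above background. The fits were tested on simulated data with known changes. Alternatives covered scaling, background correction, the deposited score, filters, probes, variance model, array weights, the block, single days left out, and, added after seeing the data, flagged spots kept and each probe on its own. All 43 members were named whatever their values, with Dnmt3a and up to 3 genes per direction of the 2 further lists; members, lists and tests were chosen with earlier results of these data known, and the clusters and alleles come from general knowledge.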

Additional observations from a re-analysis of the deposited data

Results flagged for a closer look

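In 9 of 108 groups of 4 values (72 of levels, the rest of daily differences), 1 value lay far from the other 3. Its gap, as a share of the group's whole range, passed Dixon's 95% critical value for 4 samples. Chance gives about 1 in 20 for like samples, but the 4 values here are different days. The count therefore cannot be read against that rate. Of the 9 groups, 7 concern day 2, whose slide and scanner differ from the later days. The WT array of day 2 was the highest for Mest (0.904), Plagl1 (0.867), Sgce (0.837) and Peg12 (0.836), and the lowest for Copg2 (0.869) and Zdbf2 (0.8293). The Copg2 difference between genotypes was highest on day 2 (0.857). In Dnmt3a-KO cells, Impact was highest on day 4 (0.877) and Ascl2 on day 6 (0.888).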

How the results depend on the processing

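The genotype effect called 2 genes; the count was 0 with quantile scaling, with the deposited score, without a filter on dim probes, with the mean of all probes and without the day block (no replicate block), 71 with normexp, 38 with genes well above background on all 8 arrays, 93 with an intensity trend and robust variance, 14 with array weights, 128 with day as a random block, and 0 to 0 with a day left out of both genotypes (limma throughout; 404 to 2982 genes at an unadjusted p under 0.05). Of the members, 0 were called, and 1, Peg10, with all 8 arrays well above background, 1 with the trend and 1 with the random block; the cause was not tested. Members at 2-fold or more became 10, 10 and 8 on days 2, 4 and 6 at 1.5-fold. Of all 19674 genes, 1032, 979 and 896 were higher and 832, 1542 and 1135 lower at 1.5-fold on those days. With normexp, members at 2-fold or more became 0, 3 and 1 on days 2, 4 and 5. Of 19666 genes, 137, 65 and 42 were then higher and 62, 211 and 61 lower. The genotype difference turned sign for Ascl2 with normexp (−0.00027) and the deposited score (−0.042) and for Impact with the mean of probes (−0.022). With a day left out it ranged from −0.12 to 0.0062 for Copg2, −0.37 to 0.0081 for Airn, −0.28 to 0.10 for Asb4, −0.26 to 0.039 for Peg12, −0.37 to 0.026 for Inpp5f and −0.0062 to 0.35 for Ascl2. The day slope was called for 0 to 9870 genes and 0 to 24 members with a day left out, 0 without day 2. Slopes turned sign for Rtl1 with normexp (0.17) and for H19 (0.14) and Gnas (0.043) with flagged spots kept, where another probe stands for the gene. With a day left out slopes ranged from −1.97 to 0.24 for Mest, −0.037 to 0.19 for Copg2, −0.094 to 0.44 for Zdbf2, −0.026 to 0.29 for Snrpn, −0.022 to 0.17 for Zrsr1, −0.24 to 0.31 for Asb4, −0.40 to 0.058 for Sgce, −0.11 to 0.17 for Usp29, −0.23 to 0.070 for Mkrn3, −0.072 to 1.14 for Rasgrf1, −0.49 to 0.10 for Nnat, −0.20 to 0.020 for Rtl1 and −0.11 to 0.0028 for Impact. Over all alternatives, 558 single-member genotype values kept direction and side of the threshold, 10 reversed and 3 newly passed; of the slopes 372 kept both. Arrays of a day share a slide, and with 1 array per genotype and day, differences in dim genes such as Peg10, Rasgrf1, Kcnq1 and the Gnas variant 6 probe lie close to background.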
